A study of Mus musculus with 12 samples.

Results

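Interferon-stimulated genes (ISGs) were examined here in the mouse submandibular gland (SMG). The 9 genes were Isg15, Ifit1, Ifit2, Ifit3, Irf7, Rsad2, Ifi44, Oasl2 and Bst2, taken by symbol from the 56065 genes of the count table, and all 9 were among the 17893 genes that passed the low-count filter. Bulk RNA-sequencing covered 12 libraries, each from the SMG of 1 mouse aged 8 weeks, in 4 groups of 3 biological replicates: C57BL/6J wild-type females, C57BL/6J wild-type males, C57BL/6J-Pou2f3 knockout (Pou2f3-/-) females and C57BL/6J-Pou2f3 knockout males. Pou2f3 encodes the transcription factor that tuft cells (TCs), rare chemosensory epithelial cells, need in order to form. The knockout was germline and not limited to 1 cell type, all knockout mice came from 1 engineered line, and the labels name no other allele and no treatment in either genotype. The comparisons ask how loss of Pou2f3 altered the SMG transcriptome in each sex, and how the sexes differed within each genotype.

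Type I interferons bind the receptor pair Ifnar1 and Ifnar2, and the kinases Jak1 and Tyk2 then activate STAT transcription factors. Stat2 works with Irf9 in a complex that binds a promoter element called the interferon-stimulated response element (ISRE) and switches on ISGs. Type II interferon (Ifng) acts through Ifngr1 and Ifngr2 and leads to binding at the gamma-activated site (GAS). In mucosal and glandular tissue the pathway is best known for antiviral defence, and a raised ISG level in salivary tissue is a known feature of Sjögren’s disease.

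The ISRE core, GAAANNGAAA read on either strand, was found in the promoter windows of 5 of the 9 ISGs: Isg15, Bst2, Rsad2, Ifit3 and Ifit1. The windows were RefSeq sequences of 300 bases, from 250 before to 50 after the transcription start (GRCm38.p6), and 1131 of all 32851 windows (3.44%) held the same letters. The 5 stretches are shown because they hold the letters of the element through which type I interferon acts. Capitals mark the matched letters, or their reverse complement TTTCNNTTTC, and 20 bases are kept on each side. Each line is read 5′ to 3′ on the gene's own strand, and the position, found by exact match on GRCm39, precedes the sequence.
Isg15, chr4:156285312-156285373, minus strand: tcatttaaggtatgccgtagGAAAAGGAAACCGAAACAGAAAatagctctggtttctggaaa
Bst2, chr8:71990211-71990266, minus strand: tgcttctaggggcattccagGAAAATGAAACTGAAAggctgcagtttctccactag
Rsad2, chr12:26506542-26506591, minus strand: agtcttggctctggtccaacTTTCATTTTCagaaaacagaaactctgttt
Ifit3, chr19:34560753-34560836, plus strand: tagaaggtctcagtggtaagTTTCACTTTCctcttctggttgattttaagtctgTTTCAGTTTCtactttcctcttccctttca
Ifit1, chr19:34618165-34618233, plus strand: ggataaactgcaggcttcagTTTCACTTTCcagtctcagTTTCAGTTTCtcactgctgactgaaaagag

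Isg15 held 3 overlapping matches between 78 and 57 bases before its start, Bst2 held 2 overlapping matches between 130 and 115, Ifit3 and Ifit1 held 2 separate matches each, and Rsad2 held 1. The same letters were in 11 of 28 windows of other type I ISGs and in 10 of 18 windows of type II interferon-induced genes. The Ifit3 stretch occurs at 2 places on chromosome 19, and the gene at the other place was not looked up. The GAS letters, TTCNNNGAA, read the same on both strands. They were found in 8.3% of all windows and in 2 of the 9 ISGs: in Ifit2, and in Bst2 from 136 to 128 bases before the start, where they overlap the first ISRE core match. The windows of Irf7, Ifi44 and Oasl2 held neither set of letters, which says only that these letters were absent from these windows. A match is a description of the sequence and no evidence of binding.

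**Figure D1:**
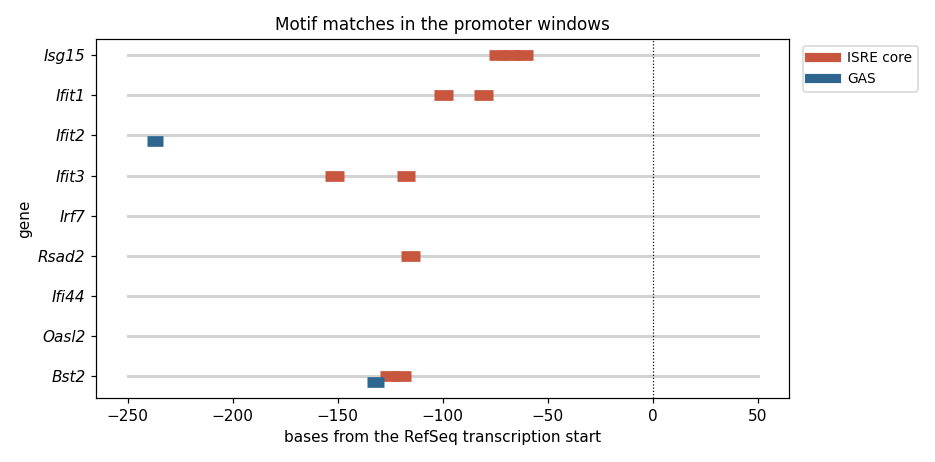
Matches to the ISRE core (red) and GAS (blue) letters in the promoter window of each ISG, by distance in bases from the RefSeq transcription start (dotted line). The grey line is the window from 250 bases before to 50 bases after the start, and matches sit before the start in 6 of the 9 genes.

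Library totals ran from 47031917 to 67881902 counts, and a count of 0 allowed up to 3 counts, or 0.0399 to 0.0782 CPM. CPM are a gene's counts scaled to a fixed library total, here adjusted by the trimmed mean of M values (TMM), whose factors were 0.625 to 0.759 in wild-type females and between 0.902 and 1.45 in the other groups. The GEO labels name the molecule as polyA RNA, while the protocol describes total RNA depleted of ribosomal RNA. The tissue label was checked by Aqp5, a water channel of acinar cells, at 79.4 to 333 CPM in every library, and by Egf, a product of the convoluted tubules that male mice are known to make in excess, at 340 to 922 CPM in females and 35200 to 62200 CPM in males. Pou2f3 itself had 0 to 10 counts in wild-type libraries and 0 to 3 in knockout libraries, so its counts could not check the knockout labels. The 8 listed tuft cell markers, of which 3 passed the low-count filter, were not lower in the knockout. They summed to 16.9 to 21.5 CPM in wild-type females and 23.7 to 25 CPM in knockout females. In males the sums were 9.63 to 11.7 CPM in wild type and 10.6 to 12 CPM in knockout. Of the 3 tested, 1 passed in females, as higher in the knockout. Libraries stood apart within groups for macrophage markers (1 wild-type female) and adipocyte markers (1 wild-type female and 2 knockout males). Muc19, a mucin abundant in the neighbouring sublingual gland, was at 4900 CPM in knockout female replicate 3 and 7390 CPM in wild-type male replicate 3, against 1.8 to 174 CPM elsewhere. Dcpp1, a secretory protein, was likewise highest in those libraries, at 111 and 193 CPM. Amy1, a salivary amylase, was at 920 CPM in knockout male replicate 2 and 124 CPM in wild-type male replicate 3, against 9.99 to 22.8 CPM in the other males, and Dcpp1 in knockout male replicate 2 was at 59.7 CPM against 2.4 and 0.141 in its group. Each library was also left out in turn. Because these are bulk samples, fewer cells of a type and less RNA per cell cannot be told apart.

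All 9 ISGs are protein-coding genes in Gencode M39 (GRCm39), and their counts cover all annotated exons. Ifit2 (chr19:34527932-34554524), Ifit3 (chr19:34560899-34566443) and Ifit1 (chr19:34618271-34632174) lie in 1 cluster on the plus strand, and Oasl2 (chr5:115034997-115050295) is on the plus strand too. On the minus strand are Isg15 (chr4:156283883-156285303), Irf7 (chr7:140842619-140846398), Rsad2 (chr12:26492745-26506451), Ifi44 (chr3:151436559-151455625) and Bst2 (chr8:71986895-71990114).

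Every ISG was detected in all 12 libraries, at 43 to 932 counts. Per kb of the canonical transcript, the mean of the 4 groups was highest for Irf7 at 4.75 CPM per kb, the transcription factor that amplifies interferon production, and for Bst2 at 4.05, the membrane tether that holds budding virus at the cell surface. Oasl2, a relative of the oligoadenylate synthetases that sense double-stranded RNA, was at 2.81, and Isg15, a ubiquitin-like protein that is joined to other proteins, was at 2.76 CPM per kb. Ifit3 was at 1.45, Rsad2 (viperin, an antiviral enzyme of the endoplasmic reticulum) at 0.968, Ifi44 at 0.947, Ifit2 at 0.605 and Ifit1 at 0.511 CPM per kb. The Ifit proteins bind viral RNA and the translation machinery. The ranges of the 4 group means overlapped for every pair of neighbours in this order. Ifit3 is uncertain as a separate gene, since 56.9% of the 31-base words of its transcript are shared with other genes, nearly all with Ifit3b. The share was 12.4% for Isg15, 6.07% for Ifit1 and under 1% for the other 6 genes.

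**Figure D2:**
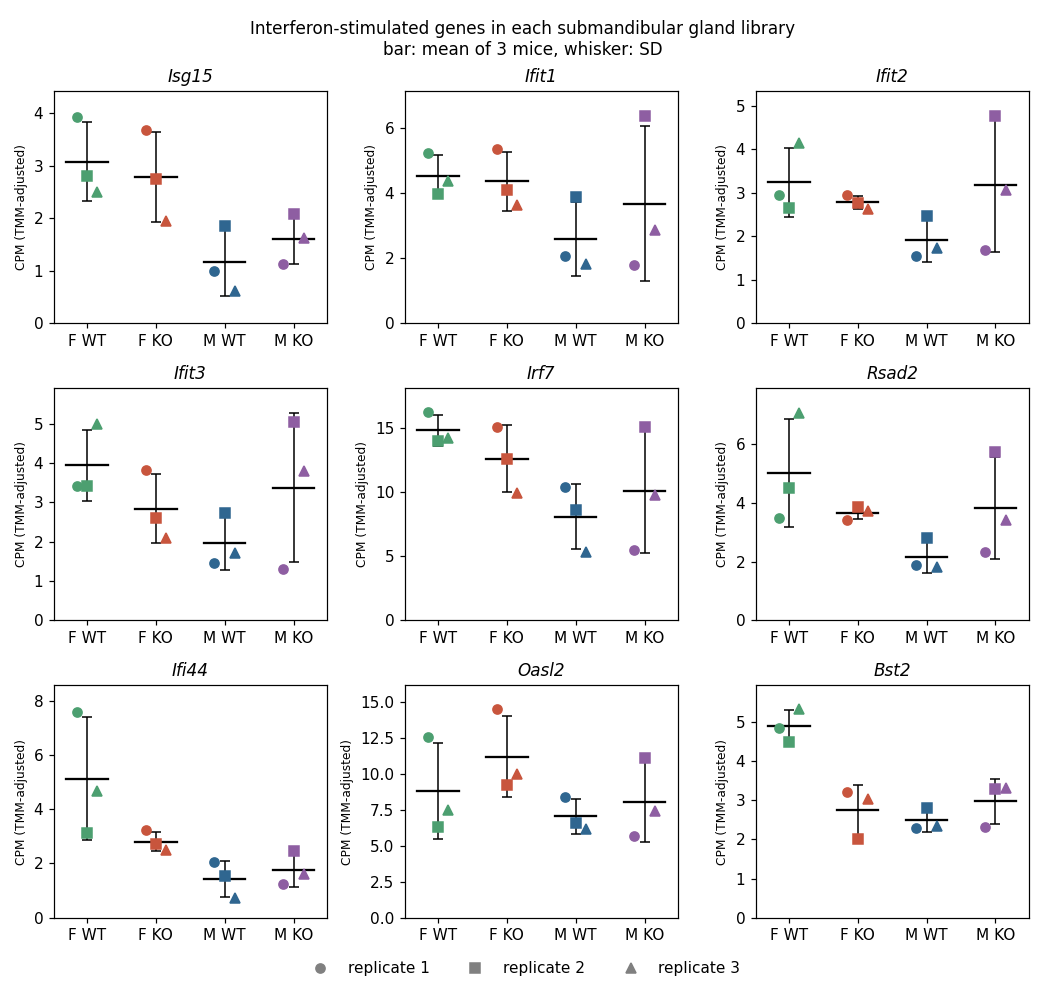
TMM-adjusted CPM of each ISG in every library, by sex (F, M) and genotype (WT, wild type; KO, Pou2f3 knockout), with the mean of 3 mice (bar) and SD (whisker); the marker shape gives the replicate number. Bst2 is at 4.49 to 5.32 CPM in wild-type females and at 2.0 to 3.31 CPM in the 9 other libraries.

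In females, Bst2 was lower in the knockout, and it was the only one of the 9 ISGs that passed the test (edgeR quasi-likelihood test, Benjamini-Hochberg adjustment over all genes tested). Of all genes tested, 36.9% passed in this comparison, 19.3% as lower, so 1 of 9 is a smaller share than the background. Bst2 stood at 4.84, 4.49 and 5.32 CPM in the 3 wild-type females and at 3.2, 2.0 and 3.02 CPM in the 3 knockout females. The groups did not overlap for this gene alone among the ISGs, against 49.3% of all genes. The log2 fold change was -0.84 ± 0.20 (SE, n = 3 per group, adjusted p = 0.0068), or 1.79-fold lower. Bst2 remained past the threshold under every setting tried and with each library left out. Macrophage markers had estimates of the same sign in this comparison, 10 of 10 negative, and 3 passed (Adgre1, C1qa and C1qb, 0 to 6 markers with each library left out). Their part in the Bst2 difference was not tested.

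The largest estimate in females was that of Ifi44, an interferon-induced cytoplasmic protein, which did not pass, with a log2 fold change of -0.87 ± 0.38 (adjusted p = 0.088, edgeR). It stood at 7.59, 3.12 and 4.67 CPM in wild-type females and at 3.22, 2.72 and 2.51 CPM in knockout females. The wild-type value of replicate 2 lay within the knockout range, and without that library Ifi44 was called, at -1.17 (adjusted p = 0.038). Ifi44 was also called by DESeq2 (adjusted p = 0.049) and in 3 other settings. Rsad2 was at 3.48, 4.51 and 7.04 CPM in wild-type females and at 3.42, 3.86 and 3.71 CPM in knockout females, with a log2 fold change of -0.45 ± 0.32 (adjusted p = 0.29). The knockout values lay within the range of the wild type apart from the lowest, and the wild-type values were spread the wider.

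The other 6 ISGs had log2 fold changes from -0.47 (Ifit3) to 0.35 (Oasl2) in females, with adjusted p from 0.36 to 0.93 by edgeR. Estimates were negative for 8 of the 9 ISGs (7 with upper-quartile factors), with a median of -0.24 against 0.03 over all genes tested. This median was -0.44 without knockout replicate 1, -0.40 without wild-type replicate 2, -0.45 by limma on the deposited normalized counts and -0.14 with upper-quartile factors. Isg15 was at 3.93, 2.8 and 2.5 CPM in wild-type females and at 3.68, 2.75 and 1.95 CPM in knockout females, so the groups overlapped. The interval of its log2 difference (± 2 SE) ran from -0.88 to 0.59. The sign for Isg15 and Ifit1 turned positive without wild-type replicate 1, to 0.012 and 0.004, and without knockout replicate 3, to 0.013 for each.

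In males, none of the 9 ISGs passed the test between knockout and wild type, against 0.235% of all genes (42 genes), and 2 of 9 had an unadjusted p under 0.05 (Ifit2 and Rsad2), against 11.5% of all genes. DESeq2 also called 0 of the 9. All 9 estimates were positive, with a median log2 fold change of 0.47 against -0.04 over all genes, and the groups overlapped for every ISG, while 14.5% of all genes did not overlap. The largest estimate was that of Rsad2, at 1.88, 2.8 and 1.83 CPM in wild-type males and 2.32, 5.72 and 3.42 CPM in knockout males (log2 0.82 ± 0.32, adjusted p = 0.33, edgeR). Ifit3 was at 1.45, 2.74 and 1.71 CPM in wild-type males and 1.31, 5.03 and 3.79 CPM in knockout males (0.78 ± 0.41, adjusted p = 0.50). For both genes, knockout replicate 2 was the highest of the 6 males and knockout replicate 1 lay near or within the wild-type values. The 10 macrophage markers likewise had 10 positive estimates in males, with a median of 0.75. Of these 0 passed, 8 had an unadjusted p under 0.05 and 5 were without overlap, and without knockout replicate 1, 5 passed. Their part in the ISG estimates was not tested. For Bst2 the male values were 2.29, 2.81 and 2.34 CPM in wild type and 2.31, 3.29 and 3.31 CPM in knockout, a log2 fold change of 0.26 ± 0.20 (adjusted p = 0.68).

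The common sign in males rested most on knockout replicate 2. All 9 estimates stayed positive in 4 of the 6 fits with 1 library left out, and 8 of 9 without wild-type replicate 3. Without knockout replicate 2, the library with the high Amy1, 5 estimates were positive and 4 negative, and the median fell to 0.18. Without wild-type replicate 3 the median was 0.22, while without wild-type replicate 2 it was 0.92. With any 1 library left out, none of the 9 ISGs was called.

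The genotype difference itself differed between the sexes for Bst2 (female minus male log2 fold change, -1.10 ± 0.29, adjusted p = 0.017, edgeR), 1 of the 9 ISGs against 25.7% of all genes, 12.4% with a negative sign. Bst2 passed under every setting. Rsad2 lay just outside the threshold, at -1.27 ± 0.45 (adjusted p = 0.054), and passed in 6 of the 8 other settings that give this contrast. The sign was negative for 8 of the 9 ISGs and positive for Oasl2 at 0.16 (adjusted p = 0.80), and the median was -0.95 against 0.03 over all genes. Without male knockout replicate 2 the median was -0.54, with 2 positive signs, and Bst2 alone passed. Without male knockout replicate 1 the median was -1.26 and 4 passed (Ifit2, Ifit3, Rsad2 and Bst2). The female and male differences were each computed within sex and share no libraries.

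**Figure D3:**
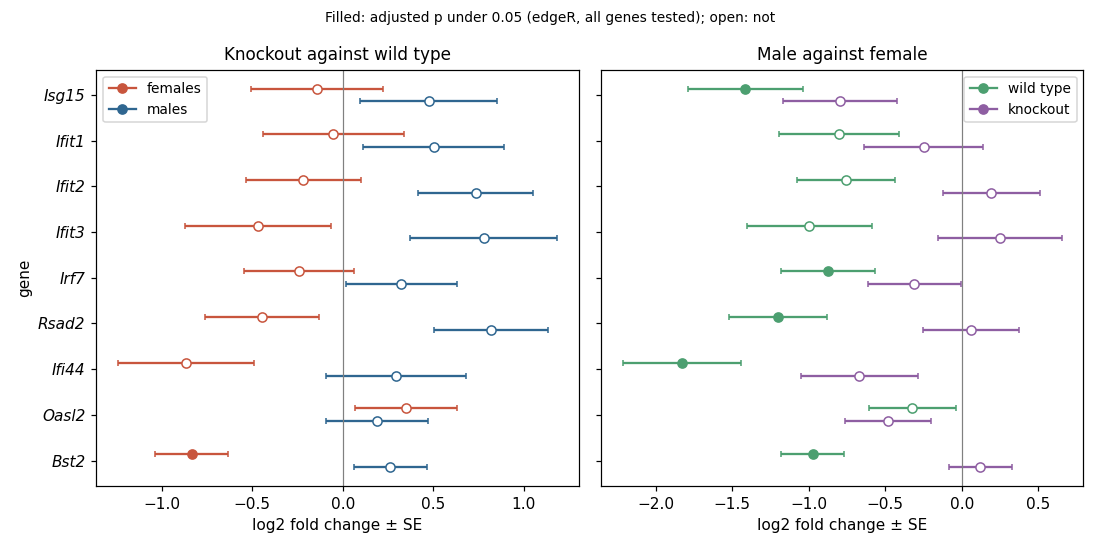
Log2 fold changes ± SE of the 9 ISGs for knockout against wild type in each sex (left) and for male against female in each genotype (right), with filled points where the adjusted p was under 0.05 over all genes tested (edgeR). Filled points are Bst2 in females on the left, and Isg15, Irf7, Rsad2, Ifi44 and Bst2 in wild type on the right.

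Among wild-type mice, 5 of the 9 ISGs were lower in males than in females: Ifi44, Isg15, Rsad2, Bst2 and Irf7 (edgeR). Of all genes, 36.5% passed in this comparison and 16.0% passed as lower. The sexes did not overlap for 8 of the 9 ISGs, against 47.6% of all genes, and the median log2 fold change was -0.98 against 0.06 over all genes. Markers of some other cell types moved in the same direction: 6 of 10 macrophage markers passed as lower in wild-type males (1 to 6 with each library left out). So did 4 of 7 endothelial and 5 of 9 acinar markers. Of 7 granular convoluted tubule markers, 6 passed as higher in males and 1 as lower, and 2 of 7 duct markers passed as higher. Of all genes, 20.5% passed as higher in wild-type males. In knockout mice the macrophage markers went the other way: 10 of 10 estimates were higher in males and 5 passed (2 to 7 with each library left out). Of all genes, 43.5% passed in this comparison and 23.2% passed as higher in males. Of 9 acinar markers in knockout, 5 passed as lower in males, against 20.3% of all genes, and 1 as higher. The higher one was Amy1, at 12, 920 and 12.5 CPM in knockout males. The acinar list also holds Muc19 and Dcpp1, which stood apart in single libraries as given above. For 7 granular convoluted tubule and 7 duct markers in knockout, 6 and 5 passed as higher, against 23.2% of all genes, and 1 of each as lower. The part of these cell types in the ISG differences was not tested.

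Ifi44 differed most, at 2.05, 1.55 and 0.728 CPM in wild-type males against 7.59, 3.12 and 4.67 CPM in wild-type females, 3.55-fold lower (log2 -1.83 ± 0.39, adjusted p = 0.0026, edgeR). Isg15 was at 0.998, 1.86 and 0.614 CPM in wild-type males, all under the lowest female at 2.5 CPM, and 2.66-fold lower (-1.41 ± 0.38, adjusted p = 0.011). Rsad2 was 2.3-fold lower (-1.20 ± 0.32, adjusted p = 0.010), with its highest male at 2.8 CPM and its lowest female at 3.48 CPM. For all 3 genes every wild-type male lay below every wild-type female. Bst2 was 1.97-fold lower in males (-0.98 ± 0.20, adjusted p = 0.0023). Irf7 was at 16.2, 14 and 14.2 CPM in wild-type females and 10.4, 8.58 and 5.32 CPM in wild-type males, 1.83-fold lower (-0.87 ± 0.31, adjusted p = 0.040).

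The calls of Irf7 and Rsad2 depended on single libraries. Irf7 lost its call when any 1 of the 3 wild-type females, male replicate 2 or male replicate 3 was left out, with adjusted p from 0.069 to 0.15 by edgeR, and Rsad2 lost its call (adjusted p = 0.058) without female replicate 3. Isg15, Ifi44 and Bst2 were called with each library left out. The same 5 genes were called with the 20 most abundant genes, 51.8 to 79.3% of a library's counts, left out of the library sizes.

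The 3 Ifit genes did not pass but were lower in every wild-type male than in every wild-type female. Ifit1 was at 5.25, 3.97 and 4.38 CPM in females and 2.06, 3.89 and 1.84 CPM in males (log2 -0.81 ± 0.39, adjusted p = 0.13, edgeR). Ifit2 was at 2.94, 2.65 and 4.15 CPM in females and 1.54, 2.47 and 1.73 CPM in males (-0.76 ± 0.32, adjusted p = 0.080). Wild-type male replicate 2 was the highest male for each of the 3, and for Ifit1 and Ifit2 it came close to the lowest female. Ifit3 had a log2 fold change of -0.998 ± 0.41 (adjusted p = 0.073). A fit of the 6 wild-type libraries alone called all 3, so that 8 of 9 passed. All 3 were also called without male replicate 2, where 7 of 9 passed. Oasl2 had the smallest difference, at 12.6, 6.31 and 7.51 CPM in females and 8.42, 6.58 and 6.16 CPM in males (-0.32 ± 0.28, adjusted p = 0.40), with overlapping values.

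In knockout mice, none of the 9 ISGs passed between males and females, by edgeR or DESeq2, and 0 had an unadjusted p under 0.05, while 43.5% of all genes passed and 51.4% had an unadjusted p under 0.05. The sexes overlapped for every ISG except Ifi44, against 54.8% of all genes without overlap. Ifi44 was at 3.22, 2.72 and 2.51 CPM in knockout females and 1.23, 2.46 and 1.62 CPM in knockout males (log2 -0.67 ± 0.38, adjusted p = 0.18). The smallest adjusted p was that of Isg15, at 3.68, 2.75 and 1.95 CPM in knockout females and 1.13, 2.08 and 1.62 CPM in knockout males (-0.80 ± 0.37, adjusted p = 0.10). Estimates were negative for 5 ISGs and positive for 4, with a median of -0.25. With upper-quartile factors 7 were negative and 2 positive (median -0.40), and with a block for the replicate number 6 and 3 (median -0.39). Single libraries moved these signs and the median too: without male knockout replicate 2, 8 were negative with a median of -0.71. Without male knockout replicate 1, 5 were positive with a median of 0.087, and without female knockout replicate 1 the median was -0.009. Without male knockout replicate 3 it was -0.095. The interval for Bst2 ran from -0.29 to 0.53, which holds no difference of the size seen in wild type. Whether a gene's sex difference differed between genotypes is the same contrast as the interaction above, and passed for Bst2 alone.

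The levels of the ISGs moved together in the knockout males, and in part in the other groups. In the knockout males, replicate 1 was the lowest of the 3 mice for 9 of 9 ISGs and replicate 2 the highest for 8 of 9, where the same libraries were lowest for 34.3% and highest for 28.2% of all genes. Summed over the 9 genes, the knockout males held 22.9, 56.0 and 36.8 CPM, the wild-type males 31.04, 33.3 and 22.3 CPM, the knockout females 55.2, 42.7 and 39.5 CPM, and the wild-type females 60.3, 45.3 and 54.8 CPM. Knockout male replicate 2 thus reached the female range, while replicate 1 lay at the low end of the wild-type males. Knockout female replicate 1 was highest for 8 of 9 ISGs (33.1% of all genes). Wild-type female replicate 2 was lowest for 7 of 9 (27.3% of all genes), while the highest was split between replicate 1 for 5 and replicate 3 for 4. In wild-type males replicate 2 was highest for 6 and replicate 3 lowest for 6, while replicate 1 was highest for 3 and lowest for 3. The median SD of log2 CPM between mice was 0.34, 0.30, 0.47 and 0.65 for the ISGs in wild-type females, knockout females, wild-type males and knockout males, against 0.17 to 0.19 in 5306 genes of the same level range.

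**Figure D4:**
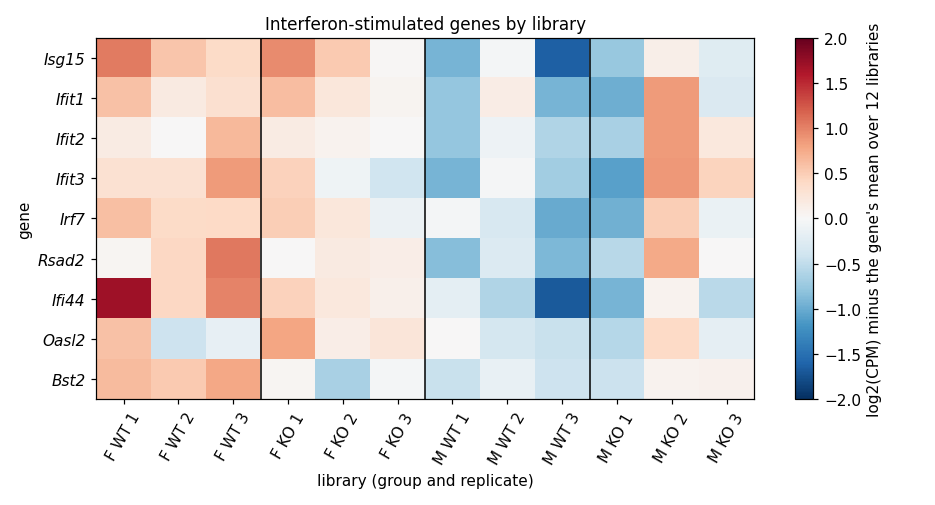
Log2 CPM of each ISG (rows) in each library (columns, grouped by sex and genotype), as the difference from that gene's mean over the 12 libraries. Knockout male replicate 1 is the lowest of its group in all 9 rows and replicate 2 the highest in 8.

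Markers of other cell types moved along with some of these libraries. The 10 macrophage markers, Adgre1 and C1qa among them, summed to 309, 111 and 160 CPM in wild-type females, 94.6, 154 and 117 in knockout females, 95.8, 112 and 113 in wild-type males, and 127, 243 and 228 CPM in knockout males. In knockout males replicate 1 was lowest for 10 of 10 of these markers and replicate 2 highest for 8 of 10, as for the ISGs. The same order held for endothelial markers (replicate 1 lowest for 6 of 7, replicate 2 highest for 6 of 7) and for T and NK cell markers (4 of 4 and 3 of 4), while replicate 1 was the highest for 7 of 9 acinar and 6 of 7 duct markers. Of 7 granular convoluted tubule markers, replicate 1 was lowest for 6 and replicate 3 highest for 6. In knockout females replicate 1 was instead lowest for 10 of 10 macrophage markers and highest for 8 of 9 ISGs. Replicate 2 was highest for 10 of 10 of these markers. Wild-type female replicate 2 was lowest for 10 of 10 macrophage markers and 7 of 9 ISGs, and replicate 1 highest for 10 of 10 and 5 of 9. Wild-type male replicate 3 was highest for 6 of 10 macrophage markers and lowest for 6 of 9 ISGs. The interaction passed for 7 of the 10 macrophage markers, all negative (edgeR), against 25.7% of all genes. With each library left out, chosen after seeing the data, this count ran from 2 to 10, and it was 2 without knockout male replicate 2, knockout male replicate 3 or wild-type male replicate 1. A list of 7 adipocyte markers, chosen after the values were seen, summed to 4.59, 11.4 and 84.0 CPM in wild-type females, 2.87 to 7.37 in knockout females, 1.82 to 2.05 in wild-type males, and 4.07, 63.1 and 38.2 CPM in knockout males. The part of either cell type in the ISG differences was not tested.

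**Figure D5:**
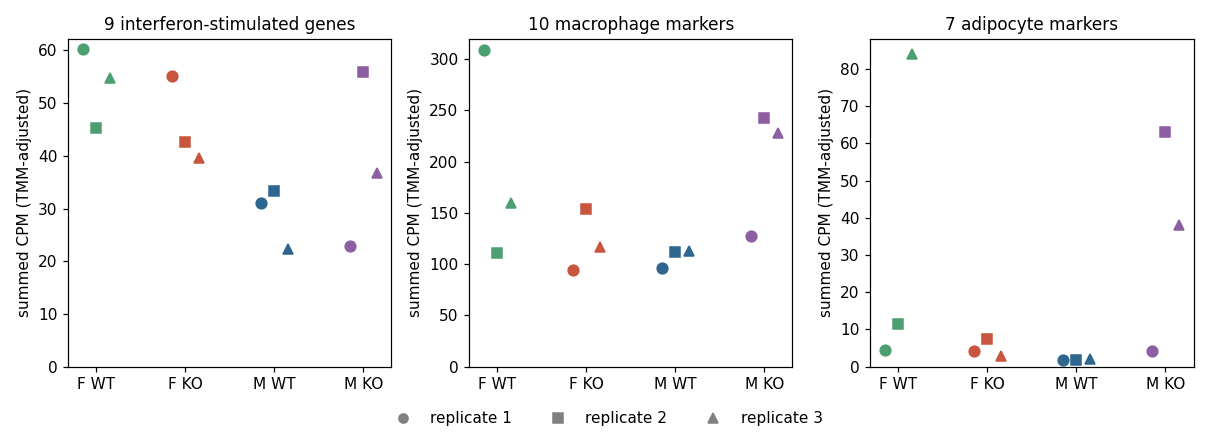
Summed TMM-adjusted CPM of the 9 ISGs, 10 macrophage markers and 7 adipocyte markers in every library, by sex and genotype. Knockout male replicate 2 is the highest of its group in all 3 panels, while knockout female replicate 1 is the highest for the ISGs and the lowest for the macrophage markers.

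Several defining markers of lymphocytes and neutrophils were at or near 0: Cd3d had at most 2 counts in any library, Cd79a at most 4, S100a8 at most 3 and Ly6g at most 1. Xbp1 and Derl3, on the plasma cell list but known to serve secretion in other cells too, were abundant, at 7405 to 14538 and 2764 to 6032 counts. Xbp1 was at 239, 326 and 359 CPM in wild-type females and at 120 to 167 CPM in the other groups, lower in knockout females (log2 -1.002 ± 0.15, adjusted p = 0.00045, edgeR) and in wild-type males (-1.04 ± 0.15, adjusted p = 0.00013), and negative in the interaction (-0.72 ± 0.20, adjusted p = 0.025). Derl3 was lower in knockout females (-0.55 ± 0.20, adjusted p = 0.047), a call lost in 5 of 6 fits with 1 library left out. Other listed genes were detected at low levels, with up to 173 counts for Jchain of plasma cells, 90 for Klrb1c, 53 for Nkg7 and 40 for Gzma of cytotoxic lymphocytes, 36 for Cd4 and 82 for Csf3r. Of 4 T and NK cell markers tested in females, 4 estimates were negative and Gzma alone passed, against 36.9% of all genes. Gzma was at 0.428, 0.426 and 0.574 CPM in wild-type females. In knockout females it was at 0.12, 0.151 and 0.172 CPM, on 6 to 9 counts. It was lower in the knockout (log2 -1.67 ± 0.38, adjusted p = 0.0044, edgeR) and negative in the interaction (-2.09 ± 0.50, adjusted p = 0.012). In the interaction too it was the only 1 of the 4 that passed, against 25.7% of all genes. The part of these cells in the ISG differences was not tested. Plasmacytoid dendritic cells, known as strong producers of type I interferon, were marked by Siglech at 0.136 to 0.842 CPM and Ccr9 at 0.114 to 0.499 CPM. The 8 markers of that list, Tcf4 and Runx2 of other cell types among them, summed to 128 to 142 CPM in wild-type females, 144 to 166 in knockout females, 161 to 168 in wild-type males and 149 to 156 CPM in knockout males. The 7 endothelial markers summed to 47 to 63.6, 45.7 to 49.5, 37.6 to 51 and 30.3 to 38 CPM in the same order. Between the sexes in wild type, 6 of the 7 were without overlap, against 47.6% of all genes, and 4 passed as lower in males (edgeR), against 16.0%. These 4 passed also with each library left out: Pecam1 (log2 -1.01 ± 0.19), Tek (-0.95 ± 0.20), Cdh5 (-0.91 ± 0.19) and Kdr (-0.60 ± 0.15). Vwf, at up to 20.7 CPM, had the opposite sign (0.52 ± 0.40, adjusted p = 0.32). In knockout 5 of the 7 passed as lower in males, against 20.3% of all genes. Their part in the sex differences was not tested.

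The wider pathway was described by 123 further genes, of which 99 passed the low-count filter. All 20 interferon ligands were among the genes left out: 17 of them had 0 counts in all libraries, Ifnb1 among them, and the largest count of any ligand in any library was 3, for Ifng. Interferon transcripts were therefore absent or too few to test at this depth. Across the 99 genes, 23 passed in females (7 higher and 16 lower in the knockout), against 36.9% of all genes. In males 0 passed, against 0.235%, and 21 had an unadjusted p under 0.05, against 11.5%. In the interaction 17 passed, against 25.7% of all genes. Between the sexes, 47 passed in wild type (10 higher and 37 lower in males), against 36.5%, and 37 in knockout (15 higher and 22 lower), against 43.5%. With each library left out, the counts ran from 15 to 26 in females, 8 to 32 in the interaction, 38 to 51 in wild type and 26 to 39 in knockout. The balance of directions in knockout rested on single libraries. Without female replicates 1, 2 and 3 it was 17 higher and 9 lower, 15 and 14, and 14 and 13. Without male replicates 1, 2 and 3 it was 21 higher and 18 lower, 12 and 26, and 14 and 17. In males the count was 13, all higher in the knockout, without knockout replicate 1, a fit in which 3.42% of all genes passed, and 0 without any 1 of the other 5 libraries. The interaction count was highest without the same knockout male and lowest without wild-type male replicate 1 or 3.

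Of the 12 receptor and JAK-STAT genes, 5 passed in females, against 36.9% of all genes. The kinase Tyk2 was higher in the knockout (log2 0.67 ± 0.12, adjusted p = 0.0012, edgeR). Jak1 (-0.50 ± 0.09), the type II receptor chain Ifngr2 (-0.52 ± 0.12) and the type I receptor chain Ifnar2 (-0.40 ± 0.12) were among the 4 that were lower. Stat2 and Irf9 did not pass in females, at 0.12 ± 0.15 and 0.27 ± 0.16. In wild-type mice Stat2 was lower in males (-0.67 ± 0.15, adjusted p = 0.0042), and Irf9 had a log2 difference of 0.05 ± 0.16. In knockout mice Stat2 was lower in males (-1.05 ± 0.15, adjusted p = 0.00015). Ifnar1 was higher in males of both genotypes, by 0.60 ± 0.09 in wild type and 0.68 ± 0.09 in knockout.

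Of the 16 nucleic acid sensors and adaptors, 3 passed in females (2 to 5 with each library left out), again against 36.9%. The RNA sensors Ifih1 (-0.54 ± 0.13, adjusted p = 0.0058, edgeR) and Tlr3 (-0.52 ± 0.14) were lower and Irf3 (0.33 ± 0.12) was higher in the knockout, a call that was lost in 4 of 6 fits with 1 library left out. Ifih1 and Rigi, which both detect viral RNA in the cytoplasm, were lower in males in wild type (-1.26 ± 0.13 and -1.27 ± 0.20) and in knockout (-0.70 ± 0.13 and -1.01 ± 0.20). Sting1, the adaptor of DNA sensing, was higher in males in both genotypes (1.04 ± 0.22 and 1.28 ± 0.22).

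Of 36 other type I ISGs, 8 passed in females, 4 in each direction, against 36.9% of all genes. Between the sexes in wild type 18 passed, against 36.5%, and 16 of them were lower in males, against 16.0%. The count in females was 3 without wild-type replicate 3 or knockout replicate 3, and 5 without wild-type replicate 2. Uba7, the enzyme that activates Isg15, was 0.88 ± 0.16 higher on the log2 scale in knockout females (adjusted p = 0.0013, edgeR), beside Isg15 itself at -0.14 ± 0.37. Sp100 was higher by 0.70 ± 0.14, Lgals3bp lower at -0.65 ± 0.17, and Nmi lower at -0.79 ± 0.23, not called without wild-type replicate 3 or knockout replicate 3 (adjusted p up to 0.053). In wild-type males, Ddx60 (-1.37 ± 0.22), Sp100 (-0.85 ± 0.14) and Ifi27l2a (-2.33 ± 0.40) were lower than in females, while Helz2 (1.07 ± 0.18) was higher. Between the sexes in knockout 18 of the 36 passed as well, against 43.5% of all genes, and 13 were lower in males, against 20.3%. The count was 10, 11 and 12 without knockout female replicates 3, 1 and 2, of which 6, 6 and 7 were lower in males. Without knockout male replicate 1 it was 20, with 10 lower and 10 higher. Sp100, Phf11d (-1.95 ± 0.22) and Uba7 (-1.18 ± 0.16) were also lower in knockout males than in knockout females. The antiviral GTPases Mx1 and Mx2 were at 0.307 to 2.8 CPM and did not pass between genotypes, with Mx1 at 1.23 ± 0.43 in males (adjusted p = 0.27) and Mx2 at 0.99 ± 0.42 in females (adjusted p = 0.084). Ifit3b, at 0.528 to 2.29 CPM, had log2 fold changes of -0.35 ± 0.49 in females and 0.70 ± 0.49 in males, neither past the test. In knockout males, replicate 2 was the highest for 31 and replicate 1 the lowest for 27 of these 36 genes.

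Of 25 type II interferon-induced genes, 6 passed in females, against 36.9% of all genes, 5 of them lower in the knockout. The GTPases Gbp2 (-0.82 ± 0.19, adjusted p = 0.0054, edgeR), Irgm1 (-0.61 ± 0.14) and Igtp (-0.79 ± 0.20) and the antigen-loading protein Tapbp (-0.48 ± 0.11) were among them. In the interaction 7 passed, against 25.7%, all negative, led by Gbp2 (-1.36 ± 0.27) and the immunoproteasome subunit Psmb10 (-1.29 ± 0.28). The count was 3 without knockout female replicate 3, wild-type male replicate 1 or 3, or knockout male replicate 2, 4 without wild-type female replicate 3 or knockout male replicate 3, and 11 without knockout male replicate 1. Between the sexes in wild type 14 were lower in males, against 16.0% of all genes, with Gbp6 at -1.80 ± 0.20, Irgm1 at -1.17 ± 0.14 and Igtp at -1.29 ± 0.20, and 1 was higher, Irf8 (2.37 ± 0.19). In knockout mice 5 were lower in males, against 20.3% of all genes, and Irf8 was again higher (2.54 ± 0.19). Without knockout female replicate 1 none was lower, and without knockout female replicate 2, 3 were. Of the 10 negative regulators, Ptpn6 alone passed in females (-0.73 ± 0.26, adjusted p = 0.044), and lost its call in 4 of 6 fits with 1 library left out (without wild-type replicate 1 or any 1 of the knockout females). Usp18, which removes Isg15 from proteins and dampens the type I receptor, was at 10.2, 4.67 and 5.45 CPM in wild-type females, 5.43, 3.69 and 4.01 in knockout females, 2.33, 2.42 and 1.3 in wild-type males, and 1.23, 3.24 and 1.66 CPM in knockout males. Every male lay below every female of the same genotype, and Usp18 passed as lower in males in wild type (-1.75 ± 0.38, adjusted p = 0.0029) and in knockout (-1.10 ± 0.38, adjusted p = 0.031). The knockout call was lost, with adjusted p up to 0.14, in every fit with 1 library left out except that without male replicate 2, while the wild-type call held in all 6.

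The genes whose pattern was most like that of the 9 ISGs, outside the pathway lists, were Ly6c1 (r = 0.92), Pparg (0.91), Slfn2 (0.91), Gm37370 (0.89) and Pde3b (0.89). The measure was Pearson's r over the 12 libraries, between log2 CPM and the mean of the z-scored ISGs. The 12 points share their libraries and group structure, so the values are a description.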

How the data were processed

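Per the protocol and the study's methods, total RNA was depleted of ribosomal RNA, made into stranded libraries and sequenced as paired reads. The GEO labels instead name the molecule as polyA RNA. The authors made the deposited estimated counts per gene with Salmon 1.10.1 (Gencode M35, GRCm39). Of the deposited estimated counts, 78.6% are whole numbers. The authors also deposited a normalized signal, in which the counts' divisor varies over genes and libraries; how it was made is not given in the sources used here.

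Estimated counts were rounded and analysed with edgeR 4.0.16 in R 4.3.3: TMM, filterByExpr, and a quasi-likelihood fit of 1 mean per group to all 12 libraries. Benjamini-Hochberg adjustment covered all 17893 genes tested, with a threshold of 0.05, and an SE is the log2 fold change, without sign, over the root of its F statistic. The study used DESeq2 (1.42.0 here), which was run as an alternative, as were other normalizations, filters, fits within each pair of groups, limma 3.58.1 on log2(signal + 1), a block for the replicate number, and each library left out (for the wider lists, chosen after seeing the data). Steps were tested on simulated data. Counting limits cover counting error only.

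Members and lists were chosen with earlier results of these data known. All 9 members were named, and from each list at most 4 genes per contrast with the smallest adjusted p, plus Stat2, Irf9, Mx1, Mx2, Usp18, Ifnb1, Ifng and Ifit3b. Some listed genes are counted in the lists but not reported here by name. Gene positions came from Gencode M39, which holds 55563 of the 56065 identifiers, and promoter windows from RefSeq (GRCm38.p6). Plots were drawn with matplotlib 3.10.9, and tables made with numpy 2.4.6 and pandas 2.3.3 (Python 3.11.15).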

Additional observations from a re-analysis of the deposited data

Results flagged for a closer look

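The following genes had a genotype difference that differed between females and males (female minus male log2 fold change, interaction in edgeR with Benjamini-Hochberg adjustment over all genes tested). Among the 9 ISGs this was Bst2 (-1.10, adjusted p = 0.017). Among the receptor and signalling genes these were Jak1 (-0.68), Ifngr2 (-0.80), Ifngr1 (-0.96) and Tyk2 (0.56). Among the sensors they were Tlr7 (-1.69) and Ifih1 (-0.57). Among other type I ISGs they were Sp100 (0.90), Uba7 (1.00), Ifitm3 (-0.83) and Ifi27l2a (-1.57). Among type II interferon-induced genes the 4 with the smallest adjusted p were Gbp2 (-1.36), Psmb10 (-1.29), Gbp6 (-1.07) and Igtp (-0.90). Adjusted p ranged from 0.0057 (Jak1) to 0.048 (Ifi27l2a). With 1 library left out in turn, calls were lost in 9 of 12 fits for Tyk2 and Ifi27l2a, 6 for Tlr7 and Ifitm3, 5 for Igtp and 4 for Ifih1, and the others, Bst2 included, were called in all 12. In this contrast 25.7% of all genes passed.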

How the results depend on the processing

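Counts of ISGs called were 0 in males and 0 between the sexes in knockout under every setting. In females 2 were called, against 1, without a low-count filter, in the fit of the 6 female libraries, by DESeq2 and by limma on the deposited normalized counts, and 1 to 2 with each library left out. In the interaction 2 were called, against 1, with RLE factors, with the 20 most abundant genes left out of the library sizes, without a filter, with at least 10 counts in every library, by DESeq2 and with a replicate block, and 1 to 4 with each library left out. Between the sexes in wild type 8 were called, against 5, in the fit of the 6 wild-type libraries, 7 (Ifit2 and Ifit3 added) by DESeq2 and without a filter, and 3 to 7 with each library left out. The interaction could not be fitted within 1 sex.

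Every sign that turned belonged to an estimate that passed in no setting. With upper-quartile factors, which moved the median of all genes to 0.13 in females and -0.18 between the sexes in knockout, Ifit1 in females was 0.048, and between the sexes in knockout Rsad2 was -0.094 and Bst2 -0.037. With the replicate block Rsad2 between the sexes in knockout was -0.022. With each library left out, log2 fold changes ran from -0.43 to 0.013 (Isg15) and -0.27 to 0.013 (Ifit1) in females, and in males from -0.024 to 0.64 (Ifi44), -0.15 to 0.92 (Ifit1), -0.083 to 0.62 (Irf7) and -0.11 to 0.39 (Oasl2). In the interaction they ran from -0.14 to 0.45 (Oasl2) and -0.97 to 0.093 (Ifit1). Between the sexes in knockout they ran from -0.008 to 0.31 (Bst2), -0.90 to 0.087 (Ifit1), -0.22 to 0.50 (Ifit2), -0.15 to 0.64 (Ifit3) and -0.34 to 0.33 (Rsad2). The causes were not tested beyond the construction of each setting.

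The labels do not say that equal replicate numbers mark paired mice. Deviations from group means correlated between -0.14 and 0.09 for libraries of the same number and sex, between -0.065 and 0.266 across sexes in wild type, and between -0.035 and 0.089 in knockout. Libraries that correlated best with their own number were 2 of 6 between genotypes in each sex, 2 of 6 between sexes in wild type and 4 of 6 in knockout. With the replicate block, ISGs called numbered 1 in females, 0 in males, 2 in the interaction, 5 between the sexes in wild type and 0 in knockout. The ISG values rest on 43 to 932 counts per library and on 3 mice per group.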
